A study of Mus musculus with 21 samples.

Results

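The RNA levels of 10 genes of maternal mRNA storage and dormancy were described in mouse oocytes: *Ybx2*, *Zar1*, *Zar1l*, *Cpeb1*, *Ddx6*, *Lsm14b*, *Eif4enif1*, *Eif4e1b*, *Patl2* and *Dazl*. They were chosen by name for their role in storing and silencing mRNA, out of 54232 genes in the count table, and all 10 were found there by symbol. Poly(A) RNA had been amplified as full-length cDNA and sequenced in 21 libraries that each held 3 fully grown oocytes at the germinal vesicle stage, the stage of prophase arrest before meiotic resumption. The study asked how much KIF11, a kinesin motor of the spindle, an oocyte needs, and lowered *Kif11* with a floxed allele (fl), a constitutive deletion allele (del) and Cre recombinases. The control was *Kif11* wt/fl without Cre (4 libraries), which already carries a floxed allele, as do all groups. The other groups were wt/fl with Spo11-Cre (5), fl/del without Cre (4), fl/del with Spo11-Cre (4), fl/fl with Gdf9-Cre (2) and fl/fl with Zp3-Cre (2). Spo11-Cre acts from early meiotic prophase, and Gdf9-Cre and Zp3-Cre act in oocytes, so a floxed allele is kept until its driver has acted, and the groups without Cre keep it throughout. Donor females were 3 to 4 months old, on a C57BL/6 background, and oocytes were taken 48 h after hormone injection. Each mouse gave 1 or 2 libraries, so that some libraries of a group share a mouse and p-values over libraries are then too small. The library names hold 2 prefixes each in wt/fl, fl/del and fl/del Spo11-Cre, and 3 in wt/fl Spo11-Cre. In these 4 groups the names also carry a letter, A without Cre, and B or C with Spo11-Cre. The labels do not say what prefix or letter stands for, and the letter cannot be told apart from Spo11-Cre. The methods cover the 17 libraries of the Spo11-Cre background. For the 4 fl/fl libraries the handling, number of oocytes, donor age and time after hormone were taken to be the same, which the methods do not state. For these 4 libraries the driver, the genotype and the set of libraries cannot be told apart.

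A fully grown oocyte is transcriptionally silent and lives on mRNA that it made while growing. Much of this mRNA is kept untranslated with a short poly(A) tail until meiosis resumes. YBX2 (MSY2), an abundant RNA-binding protein of germ cells, coats maternal mRNA broadly. ZAR1 and ZAR1L bind 3′ untranslated regions of stored mRNA. CPEB1 binds the cytoplasmic polyadenylation element (CPE) in the 3′ untranslated region and holds the mRNA silent until signals of maturation turn it into an activator. DAZL, itself translated from a CPE-controlled mRNA, promotes translation of its targets during maturation. The RNA helicase DDX6 works with LSM14B and PATL2 in the repressed particle. EIF4ENIF1 (4E-T) bridges such particles to the cap-binding protein eIF4E, of which EIF4E1B is the oocyte form.

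Total counts per library ranged from 7205010 (fl/del replicate 3) to 18454549. *Kif11* ranged from 23.8 to 43.2 CPM (counts per 1000000 counts of the library) in wt/fl and from 17.6 to 30.5 once Spo11-Cre was added. It ranged from 7.49 to 14.6 CPM in fl/del and from 1.08 to 2.70 once Spo11-Cre was added, while both Gdf9-Cre libraries were at 4.90 and 5.11 and both Zp3-Cre libraries at 4.27 and 7.95. All of these lie in the direction of the labels. All 12 oocyte marker genes were at 10 CPM or more in every library, and their sum was between 22706 and 32254 CPM. The 18 marker genes of follicle cells summed to between 73.5 and 126.5 CPM, 14 of them had a mean under 1 CPM, and *Foxl2*, *Ptx3* and *Tnfaip6* were at 0 in all libraries. Most of the sum came from *Cyp19a1* (mean 66.1 CPM) and *Nr5a2* (28.5), which like *Kitl* (3.84) were counted in all 21 libraries. *Star* (1.20) was counted in 19. The fl/fl Zp3-Cre replicate 1 library stood farthest from the others: its median absolute log2 difference from the mean of the other 20 libraries was 0.30, against at most 0.24 elsewhere. Among the 17 libraries, wt/fl Spo11-Cre replicate 5 was the farthest, at 0.21. Members' edgeR calls that rest on either library are given below with and without it, and DESeq2 was not run without them.

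On GRCm38 the genes lie at chr11:69935796-69941605 (*Ybx2*, plus strand), chr5:72576806-72581254 (*Zar1*, minus), chr5:150507055-150518164 (*Zar1l*, minus), chr7:81347026-81455465 (*Cpeb1*, minus) and chr9:44604892-44640731 (*Ddx6*, plus). *Lsm14b* lies at chr2:180024987-180035465 (plus), *Eif4enif1* at chr11:3202392-3244588 (plus), *Eif4e1b* at chr13:54783998-54788459 (plus), *Patl2* at chr2:122120108-122186189 (minus) and *Dazl* at chr17:50279395-50293636 (minus). No exon of these genes overlaps an exon of another annotated gene. Because storage is set through 3′ untranslated regions, the members' own regions were searched on the transcript strand for 2 spellings of the CPE, TTTTAT and TTTTAAT, and for 2 poly(A) signals, AATAAA and ATTAAA. Each match is a match of letters and not a tested site. In the last 100 bases, 18.68% of 14378 annotated 3′ untranslated regions of tested genes held a CPE spelling, 79.32% a poly(A) signal and 15.38% both. Over their whole length these regions held 1.336 CPE spellings per 1000 bases, the rate to set beside counts in long regions. Of the members, *Ybx2* held a CPE spelling in that window, 56 bases from the annotated end, and neither poly(A) signal. *Dazl* held 6 in its 1852-base region, the last of them 367 bases from the end, *Ddx6* 7 in 4250 bases and *Lsm14b* 2 in 1177 bases. None was found in *Zar1* (146 bases) or *Patl2* (366 bases), and the annotated regions of *Zar1l* (14 bases), *Cpeb1* (61 bases) and *Eif4e1b* (73 bases) are shorter than the window. The search covered 1 transcript of each gene, and that of *Zar1* ends before the annotated 3′ end of the gene, so the rest was not searched. The CPE spelling nearest the end of *Ybx2*, *Dazl* and *Lsm14b*, and the poly(A) signal of the searched *Zar1* transcript, are shown with their flanks, with the matched letters in capitals. All lie in the last exon's 3′ untranslated region.
Ybx2 (chr11:69941533-69941560, plus): ctctgaagccaTTTTATgaactgtcatg
Dazl (chr17:50279753-50279780, minus): agtcaaaattcTTTTATgtcaccaagtc
Lsm14b (chr2:180034635-180034662, plus): atggaaccaaaTTTTATttggcacatgt
Zar1 (chr5:72577118-72577145, minus): taaagcctgtgAATAAAaggtattgcaa

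The 10 genes differed widely in level. On the scale of TPM (transcripts per 1000000, the authors' values, which divide by gene length), *Zar1l* was highest, at 2151 ± 158 (mean ± SD, n = 21 libraries), and ranked 57th of all genes. *Dazl* followed at 928 ± 104 TPM and *Zar1* at 719 ± 93.3. *Dazl* was above *Zar1* in 19 of 21 libraries, but their ranges overlapped, in wt/fl as well. *Cpeb1* was at 247 ± 54.6 TPM, below *Zar1* and above *Eif4enif1* in every library. *Eif4enif1* (107 ± 17.1), *Eif4e1b* (95.7 ± 28.2), *Lsm14b* (64.7 ± 24.1) and *Patl2* (55.5 ± 9.05) came next, with ranges that overlapped from each to the next. *Ybx2* stood at 45.1 ± 13.2 TPM, and its range overlapped that of *Patl2*. *Ddx6* was lowest, at 3.77 ± 1.38 TPM, and below *Ybx2* in all 21 libraries. The level of *Zar1l* rests on an annotated model of 895 exonic bases, the shortest of the 10. Reads outside that model were not counted, so how a longer true transcript would move its TPM cannot be told. For most other members the merged exons are longer than the transcript with the longest coding sequence. They span 3465 against 1429 bases for *Zar1*, 2255 against 841 for *Eif4e1b* and 4192 against 1777 for *Cpeb1*. For *Dazl* they span 3820 against 2976. A shorter length would raise these TPM, so the order among members, and against paralogs, rests on the lengths used. Other lengths were not tried. Together the 10 genes took 0.403 ± 0.0126% of all counts in wt/fl (SD, n = 4), and *Zar1*, *Zar1l* and *Dazl* made up 75.1% of this over all libraries.

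**Figure D1:**
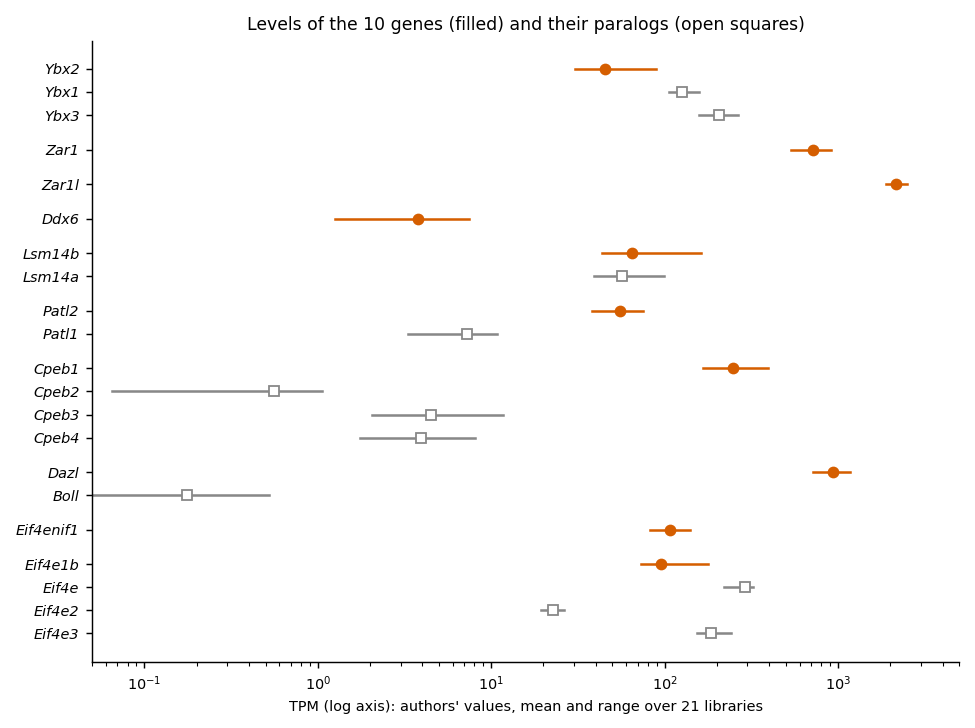
TPM of the 10 genes (filled circles) and of the paralogs of 6 of them (open squares), as the mean over 21 libraries with a line from the lowest to the highest library, on a log axis. *Zar1l* is highest at 2151 and *Ddx6* lowest at 3.77 among the 10, *Ybx2* lies below *Ybx1* and *Ybx3*, and *Cpeb1* lies above the other 3 CPEB genes. *Boll*, listed at 0 in 5 libraries, has its line cut at the left edge.

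The paralogs showed which members of each family carried the RNA. *Cpeb1* exceeded *Cpeb2* (0.562 TPM), *Cpeb3* (4.48) and *Cpeb4* (3.93) in all 21 libraries. *Dazl* exceeded its family member *Boll* (0.177 TPM) in all 21, and *Patl2* was 7.69 times *Patl1* (7.22 TPM). *Lsm14b* and *Lsm14a* (56.9 TPM) were near each other, with *Lsm14b* higher in 15 of 21 libraries. *Eif4e1b* was below the general cap-binding factor *Eif4e* (289 TPM) in every library, below *Eif4e3* (186 TPM) in all but 1, and above *Eif4e2* (22.8 TPM) in every library. *Ybx2* was below its family members *Ybx1* (126 TPM) and *Ybx3* (206 TPM) in all 21 libraries. Each library holds 3 oocytes, but in such a pool fewer oocytes with a given RNA and less of it in each oocyte cannot be told apart. Tail length was not measured, and cDNA was primed on poly(A). For these 10 genes, fewer molecules and a smaller share of molecules with a tail long enough to be primed cannot be told apart here.

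**Figure D2:**
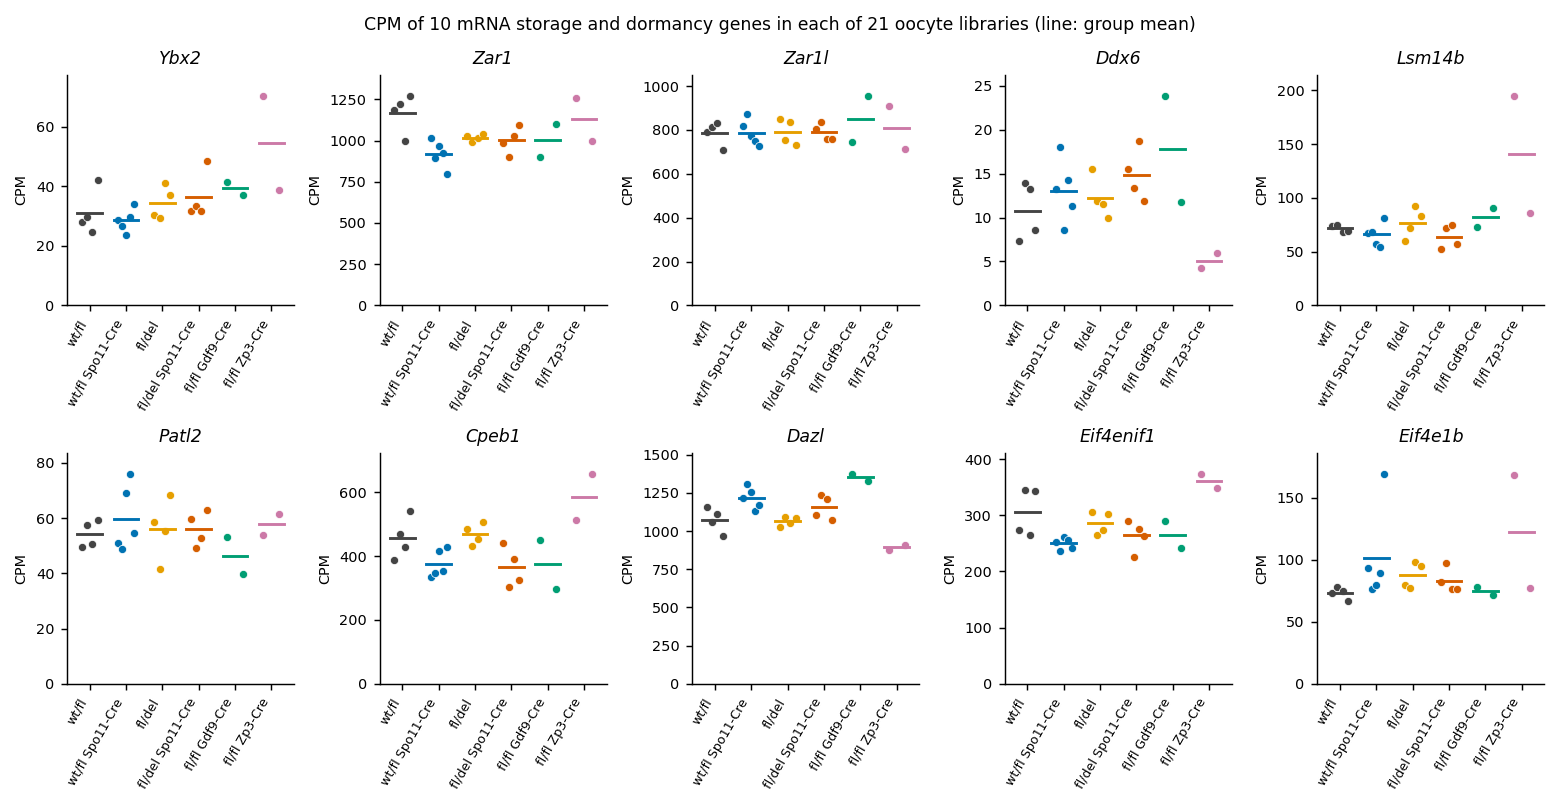
CPM of each of the 10 genes in each library, by group, with the group mean as a line and axes that start at 0. *Zar1l* overlaps across all groups, *Dazl* is lower in both fl/fl Zp3-Cre libraries (878 and 909 CPM) than in any other library, and single libraries stand high for *Lsm14b* (195 CPM) and *Eif4e1b* (169.5 and 168.6 CPM).

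Among the 4 genotypes of the Spo11-Cre background, 3 of the 10 genes passed a test, *Zar1*, *Eif4e1b* and *Cpeb1*. Changes were tested with edgeR's quasi-likelihood test over all genes, and a gene was called at a Benjamini-Hochberg adjusted p under 0.05. No member was called between fl/del and wt/fl, where 0.0223% of 22383 genes were called. None was called between fl/del Spo11-Cre and wt/fl (0.197% of genes), fl/del Spo11-Cre and wt/fl Spo11-Cre (0.0357%), fl/del Spo11-Cre and fl/del (0.241%), or fl/del and wt/fl Spo11-Cre (0.201%). At an unadjusted p under 0.05 these 5 comparisons held 1, 3, 2, 2 and 3 members. Of all 22383 genes they held 1906, 2334, 1591, 1862 and 2068. DESeq2 called no member in any of the 5. The interaction of Spo11-Cre with the deletion allele was called for 0 of 10 members (0.103% of genes). At an unadjusted p under 0.05 it held 2 members and 2311 of 22383 genes, and DESeq2 again called no member. Between fl/del Spo11-Cre and wt/fl the members' log2 fold changes ran from -0.33 (*Cpeb1*) to 0.47 (*Ddx6*), with a median of 0.02 against 0.01 over all genes. A test over the 4 genotypes called 1 member, *Cpeb1* (1.46% of genes), and a comparison of wt/fl Spo11-Cre with wt/fl called 2, *Zar1* and *Eif4e1b* (2.19% of genes). In the latter comparison DESeq2 called 3 members, *Zar1*, *Dazl* and *Eif4enif1*, and 931 of 22383 genes. The 5 groups are compared with the same 4 wt/fl libraries, so that a high or low wt/fl library moves all of these comparisons together.

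Among the genes that coat stored mRNA, *Zar1* fell in wt/fl Spo11-Cre. The 4 control libraries held 1183, 1223, 997 and 1273 CPM. The 5 libraries with Spo11-Cre held 1016, 892, 968, 926 and 797 CPM. All but the highest wt/fl Spo11-Cre library lay below the lowest wt/fl library, and the groups overlapped through wt/fl replicate 3. The log2 fold change was -0.32 ± 0.08 (SE), a ratio of 0.800, with an edgeR adjusted p of 0.00994. Without wt/fl replicate 2 the adjusted p by edgeR was 0.0600, and without wt/fl replicate 4 it was 0.0726, at log2 fold changes of -0.30 and -0.28. Without wt/fl Spo11-Cre replicate 5, the lowest library, it was -0.28 and stayed called (edgeR adjusted p 0.0431). With no library left out, the call was kept in 8 of 10 alternatives. It was lost with limma on TPM (adjusted p 0.0744) and with all 21 libraries in the edgeR fit (0.0559). The edgeR test over 4 genotypes did not call *Zar1* (adjusted p 0.0561). *Zar1* was also lower on average in fl/del (1018 ± 20.0 CPM, SD, n = 4) and fl/del Spo11-Cre (1002 ± 81.5) against a control mean of 1169 ± 120, with edgeR adjusted p of 0.580 and 0.296. With Spo11-Cre added to fl/del, its log2 fold change was -0.04 ± 0.08 (SE, edgeR adjusted p 0.965).

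*Zar1l*, the relative of *Zar1*, had the steadiest level of the 10. Its group means lay between 786 CPM (wt/fl) and 850 CPM (fl/fl Gdf9-Cre), its lowest and highest library were at 708 and 957 CPM, and its coefficient of variation over 21 libraries was 8.21%. Between fl/del Spo11-Cre and wt/fl its log2 fold change was 0.00 ± 0.08 (SE). *Ybx2* was lower and more variable in count, at 27.9, 29.8, 24.7 and 42.2 CPM in wt/fl and at 28.8, 26.5, 23.7, 29.9 and 34.2 CPM in wt/fl Spo11-Cre. It was at 30.4, 29.3, 41.2 and 37.0 CPM in fl/del and at 31.8, 33.4, 31.6 and 48.6 CPM in fl/del Spo11-Cre. The 4 genotypes overlapped, and no comparison among them was called for *Ybx2*. Its highest library in 3 of them (42.2, 41.2 and 48.6 CPM) stood above all 5 of wt/fl Spo11-Cre.

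Of the regulators that act through the CPE and DAZL sites, *Cpeb1* differed over the 4 genotypes. It was at 389, 471, 429 and 541 CPM in wt/fl and at 485, 431, 453 and 506 CPM in fl/del, the groups without Cre. With Spo11-Cre it was at 334, 346, 417, 353 and 430 CPM in wt/fl and at 440, 302, 391 and 326 CPM in fl/del. The groups with Spo11-Cre had lower means than those without, and fl/del lay wholly above wt/fl Spo11-Cre, with the lowest fl/del library at 431.3 CPM and the highest wt/fl Spo11-Cre library at 429.5. In that comparison 2 members lay wholly higher (*Cpeb1* and *Eif4enif1*) where 1.34% of genes did, and 1 wholly lower (*Dazl*) where 1.5% did. The edgeR test over 4 genotypes gave *Cpeb1* an adjusted p of 0.0361. No pair of genotypes passed. With Spo11-Cre added to fl/del, the log2 fold change was -0.38 ± 0.10 (SE, edgeR adjusted p 0.115). With Spo11-Cre added to the wt/fl control it was -0.26 ± 0.10 (0.162), and for both alleles lost against that control it was -0.33 ± 0.10 (0.175). The call over 4 genotypes was lost when libraries with the same name prefix were summed, with the filterByExpr filter and with limma on TPM. It was also lost without any 1 of 8 libraries: wt/fl replicates 2 and 4, wt/fl Spo11-Cre replicates 2 and 4, fl/del replicates 1 and 4, and fl/del Spo11-Cre replicates 2 and 4.

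*Dazl* was at 1159, 1057, 1109 and 966 CPM in wt/fl, and at 1217, 1305, 1258, 1129 and 1170 CPM in wt/fl Spo11-Cre. The fl/del libraries held 1028, 1094, 1055 and 1082 CPM, and those of fl/del Spo11-Cre held 1103, 1237, 1207 and 1074 CPM. The groups with Spo11-Cre reached higher than the groups without it, but wt/fl overlapped both of them. Against the controls the log2 fold change of *Dazl* was 0.20 ± 0.07 in wt/fl Spo11-Cre (SE, edgeR adjusted p 0.141) and 0.10 ± 0.08 in fl/del Spo11-Cre (0.671). With DESeq2 the difference in wt/fl Spo11-Cre was called (adjusted p 0.0335).

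In the repressed particle, neither the helicase gene *Ddx6* nor its partners *Lsm14b* and *Patl2* were called among the 4 genotypes. *Ddx6* was low and variable, at 7.28, 13.9, 13.3 and 8.59 CPM in wt/fl and at 15.6, 13.4, 18.7 and 11.9 CPM in fl/del Spo11-Cre, and these groups overlapped. Its log2 fold change between them was 0.47 ± 0.24 (SE, edgeR adjusted p 0.498), with a 95% interval from -0.01 to 0.94, so that a change of that size in *Ddx6* was not detectable at this depth and number of libraries. *Lsm14b* lay between 68.5 and 74.5 CPM in wt/fl and between 52.3 and 92.9 CPM in the other 13 libraries of the Spo11-Cre background. *Patl2* lay between 49.6 and 59.5 CPM in wt/fl and between 41.6 and 76.0 CPM in those 13 libraries.

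On the cap side, *Eif4e1b* was higher in wt/fl Spo11-Cre, where a single library stood out. The controls held 73.7, 77.8, 75.1 and 66.6 CPM. The libraries with Spo11-Cre held 93.2, 76.8, 80.0, 89.6 and 169.5 CPM. The groups overlapped by 1 library, and replicate 5 was far above the other 4. The log2 fold change was 0.51 ± 0.14 (SE), a ratio of 1.42, with an edgeR adjusted p of 0.0335. Without wt/fl Spo11-Cre replicate 5 it was 0.23 (edgeR adjusted p 0.386), and the call was also lost without wt/fl replicate 1 (0.0701), replicate 2 (0.0720) or replicate 4 (0.118). With all 9 libraries, *Eif4e1b* was not called by DESeq2 (adjusted p 0.102) or limma on TPM (0.356), nor by edgeR with filterByExpr (0.0755), with only the compared groups (0.0526) or with all 21 libraries in the fit (0.0986). Replicate 5 is the library that stood farthest from the others of this background, and the part of this in the result was not tested. *Eif4e1b* was at 79.4, 77.4, 98.7 and 95.3 CPM in fl/del and at 82.0, 97.2, 76.8 and 76.2 CPM in fl/del Spo11-Cre, and neither group was called against wt/fl.

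*Eif4enif1*, the gene of the 4E-T bridge, was at 273, 345, 264 and 344 CPM in wt/fl and at 253, 237, 262, 256 and 242 CPM in wt/fl Spo11-Cre. All 5 wt/fl Spo11-Cre libraries lay below all 4 wt/fl libraries, the 1 member of 10 for which these groups did not overlap downward (2.82% of genes). The log2 fold change of -0.27 ± 0.09 (SE) did not pass, with an edgeR adjusted p of 0.0921, and DESeq2 called it (adjusted p 0.0289). Over the comparison of wt/fl Spo11-Cre with wt/fl, 1 member was called higher (0.867% of genes) and 1 lower (1.33%), and the members' median log2 fold change was -0.03 against 0.03 over all genes.

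**Figure D3:**
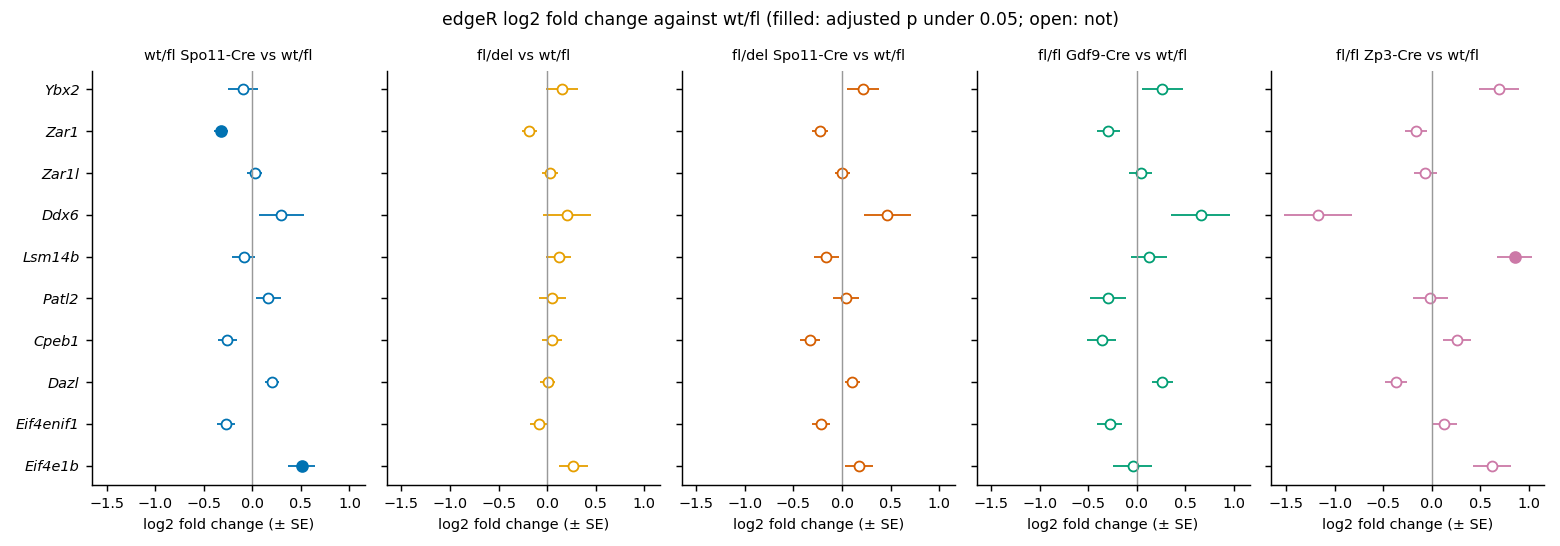
Log2 fold change of each gene against wt/fl by edgeR, with its SE as a bar, in 5 comparisons that share the 4 wt/fl libraries. Filled circles, at an adjusted p under 0.05, are *Zar1* (-0.32) and *Eif4e1b* (0.51) in wt/fl Spo11-Cre and *Lsm14b* (0.85) in fl/fl Zp3-Cre.

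The widest differences among the 10 genes lay in the fl/fl libraries, and chiefly between the 2 drivers. Over all 6 groups edgeR called 4 members, *Cpeb1* (adjusted p 0.00576), *Ddx6* (0.0129), *Lsm14b* (0.000619) and *Dazl* (0.00262), where 5.57% of 23225 genes were called. Without fl/fl Zp3-Cre replicate 1 this test called 2 of them, *Cpeb1* and *Dazl*. Against wt/fl, no member was called with Gdf9-Cre (1.48% of genes), although 5 members had an unadjusted p under 0.05, as did 2718 of 23225 genes. DESeq2 called 1 member there, *Dazl*, and 728 of all genes. *Dazl* was the 1 member that lay wholly above wt/fl (11.7% of genes). With Zp3-Cre 1 member was called, *Lsm14b* (2.27% of genes, 1.04% higher). DESeq2 called 4 there, *Lsm14b*, *Ybx2*, *Ddx6* and *Dazl*, and 892 of 23225 genes. For the mean of both fl/fl groups, no member was called against wt/fl by edgeR (2.79% of genes). An unadjusted p under 0.05 was reached by 3 members and by 3312 of 23225 genes. DESeq2 called 1 member, *Lsm14b*, and 1109 of these genes. Against fl/del Spo11-Cre 1 member was called, again *Lsm14b* (2.9% of genes, 1.21% higher). Between Zp3-Cre and Gdf9-Cre 2 members were called, *Ddx6* and *Dazl*, both lower with Zp3-Cre (0.891% of genes, 0.586% lower). Each fl/fl group has 2 libraries, and the lower total counts in these 4 libraries, from 7801470 to 10759741, against 12729969 or more in all but 1 of the others, were not separable from the group. Mitochondrial genes took 0.510% of counts in Gdf9-Cre replicate 1, 0.268% in replicate 2, and 0.315% and 0.331% with Zp3-Cre, against 0.168% to 0.281% in the other 17 libraries. The part of this in the results was not tested.

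*Dazl* was at 1375 and 1328 CPM with Gdf9-Cre and at 878 and 909 CPM with Zp3-Cre. In CPM the Gdf9-Cre libraries were above, and the Zp3-Cre libraries below, all 17 libraries of the Spo11-Cre background. The upper order depends on the scaling. The TMM factors, used in the edgeR fit, were 1.05 and 1.04 with Gdf9-Cre. The factor was 0.980 for wt/fl Spo11-Cre replicate 2, at 1305 CPM. With TMM library sizes the Gdf9-Cre libraries were below that library, and the Zp3-Cre libraries stayed lowest. Between the drivers the log2 fold change was -0.63 ± 0.13 (SE, Zp3-Cre against Gdf9-Cre), a ratio of 0.647, with an edgeR adjusted p of 0.00313. Without any 1 of the 4 libraries it lay between -0.70 and -0.56, and the highest edgeR adjusted p was 0.0481, without Zp3-Cre replicate 1. Against wt/fl it was 0.26 ± 0.11 with Gdf9-Cre (edgeR adjusted p 0.301) and -0.37 ± 0.11 with Zp3-Cre (0.0684), the latter -0.29 without Zp3-Cre replicate 1. In the fit of these 4 libraries alone, the call between the drivers was lost, at an edgeR adjusted p of 0.712.

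*Ddx6* was at 23.9 and 11.7 CPM with Gdf9-Cre and at 4.23 and 5.98 CPM with Zp3-Cre. The Zp3-Cre libraries were the lowest of all 21, from 33 counts upward, and the other 19 lay at 7.28 CPM or more. The log2 fold change between the drivers was -1.83 ± 0.39 (SE), a ratio of 0.282, with an edgeR adjusted p of 0.00492. Without Gdf9-Cre replicate 1 it was -1.23 (edgeR adjusted p 0.290), and without Zp3-Cre replicate 1 it was -1.57 (0.139). Against wt/fl the Zp3-Cre libraries gave -1.17 ± 0.35 for *Ddx6*, which did not pass (edgeR adjusted p 0.0581), and -0.90 without Zp3-Cre replicate 1. Gdf9-Cre replicate 1, the highest of the 21 libraries for *Ddx6*, is the one with the highest mitochondrial share.

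*Lsm14b* was at 73.2 and 90.7 CPM with Gdf9-Cre and at 195 and 86.3 CPM with Zp3-Cre. Both Zp3-Cre libraries were above all wt/fl libraries, and the first exceeded every library outside that group, which reached at most 92.9 CPM. The log2 fold change of Zp3-Cre against wt/fl was 0.85 ± 0.18 (SE), a ratio of 1.81, with an edgeR adjusted p of 0.00222. Without Zp3-Cre replicate 1 it was 0.22 (edgeR adjusted p 0.880). For the mean of both fl/fl groups against fl/del Spo11-Cre it was 0.66 ± 0.15 (edgeR adjusted p 0.00535), and without that library 0.34 (0.332), while the libraries overlapped. The same library was the highest of its pair for *Ybx2* (70.5 against 38.7 CPM) and for *Eif4e1b* (168.6 against 77.1 CPM), and it is the library that stood farthest from the other 20. The part of this in the results was not tested. Against wt/fl the Zp3-Cre libraries gave *Ybx2* a log2 fold change of 0.69 ± 0.21 (SE, edgeR adjusted p 0.0578, DESeq2 adjusted p 0.0329), and 0.26 (edgeR adjusted p 0.880) without that library. For *Eif4e1b* it was 0.62 ± 0.20 (edgeR adjusted p 0.0776), and 0.02 without that library. With Gdf9-Cre, *Ybx2* was at 41.5 and 37.1 CPM and *Eif4e1b* at 77.9 and 71.8 CPM, and both overlapped wt/fl.

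*Cpeb1* was at 451 and 298 CPM with Gdf9-Cre and at 513 and 658 CPM with Zp3-Cre. The drivers did not overlap, and the log2 fold change between them, 0.62 ± 0.17 (SE), did not pass with edgeR (adjusted p 0.0574) but did with DESeq2 (0.0343). Without any 1 of the 4 libraries it lay between 0.35 and 0.95. *Eif4enif1* was at 289 and 241 CPM with Gdf9-Cre and at 374 and 348 CPM with Zp3-Cre. In CPM the Zp3-Cre libraries were above every wt/fl library. With TMM library sizes (factors 1.10 and 1.03) they were below wt/fl replicates 2 and 4 (factors 1.00 and 0.994). The log2 fold change of *Eif4enif1* with Zp3-Cre against wt/fl was 0.13 ± 0.13 (edgeR adjusted p 0.721). In all, in CPM, 2 members were wholly higher with Zp3-Cre than in wt/fl where 11.1% of genes were, and 2 wholly lower where 5.69% were. Between the drivers, also in CPM, 3 members were wholly higher with Zp3-Cre (14.6% of genes) and 2 wholly lower (13.1%). *Zar1* (900.5 and 1099.9 CPM with Gdf9-Cre, 1256 and 999.6 with Zp3-Cre), *Zar1l* and *Patl2* were called in no comparison of the fl/fl groups with others or with each other. *Patl2* was at 53.2 and 39.6 CPM with Gdf9-Cre and at 54.0 and 61.4 CPM with Zp3-Cre, so the drivers did not overlap, by less than 1 CPM. With TMM library sizes the drivers overlapped for *Patl2*. For the mean of both fl/fl groups, log2 fold changes of the 10 members against wt/fl ran from -0.26 (*Ddx6*) to 0.49 (*Lsm14b*). Against fl/del Spo11-Cre those of the 9 members not called ran from -0.72 (*Ddx6*) to 0.28 (*Cpeb1*).

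**Figure D4:**
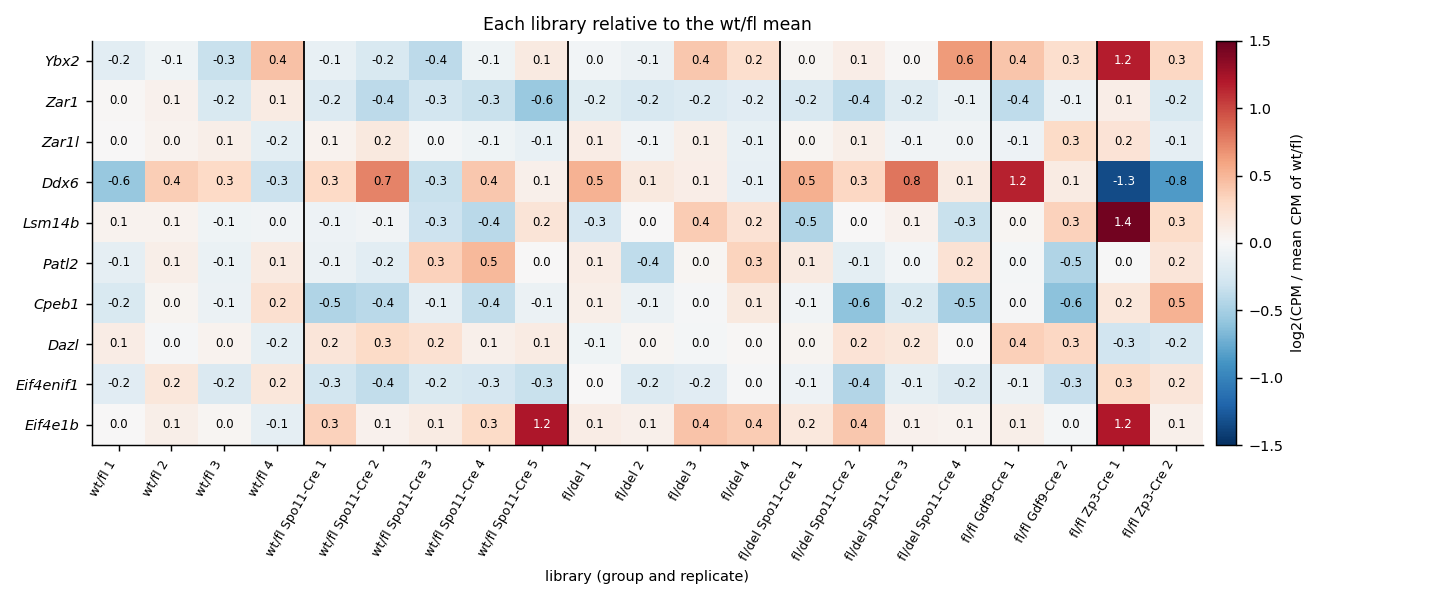
Log2 of the CPM of each gene in each library over the mean CPM of the 4 wt/fl libraries, with black lines between groups. The cells farthest from 0 are in single libraries: *Lsm14b* (1.45), *Ybx2* (1.18), *Eif4e1b* (1.20) and *Ddx6* (-1.35) in fl/fl Zp3-Cre replicate 1, *Eif4e1b* in wt/fl Spo11-Cre replicate 5 (1.21) and *Ddx6* in fl/fl Gdf9-Cre replicate 1 (1.15).

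Other genes of the same pathways were counted from 4 lists: 11 paralogs of the members, 19 genes of cytoplasmic polyadenylation and poly(A) binding (18 tested), 30 genes of mRNA repression and decapping (29 tested), and 14 mRNAs known to be dormant or translated on maturation. In wt/fl Spo11-Cre against wt/fl, 0 of 11 paralogs, 2 of 18, 2 of 29 and 2 of 14 were called, all lower, where 2.19% of all genes were called and 1.33% were lower. They were *Pabpc1l*, the oocyte poly(A)-binding protein (log2 fold change -0.43), the RNA-binding protein *Rbpms2* (-0.34), the decapping cofactor *Dcp1a*, which is in 2 lists (-0.40), the mRNA-binding protein *Igf2bp2* (-0.34), and *Plat*, tissue plasminogen activator, a classical dormant mRNA (-0.54). Without wt/fl Spo11-Cre replicate 5, *Dcp1a*, *Pabpc1l* and *Plat* remained called and the other 2 were not. The medians of these 4 lists were -0.04, -0.01, -0.12 and -0.04, against 0.03 over all genes. No gene of the 4 lists was called in the other 5 pairs of genotypes or in the interaction.

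In the fl/fl libraries list genes were called in both directions. Against wt/fl, 0 of 11, 1 of 18, 1 of 29 and 1 of 14 were called with Gdf9-Cre (1.48% of all genes), while Zp3-Cre gave 2, 2, 5 and 2 (2.27%). With Gdf9-Cre they were *Paip1*, a partner of poly(A)-binding protein (0.71), and the stress granule gene *G3bp2* (0.45), both higher, and *Tex19.1* (-0.70), lower. With Zp3-Cre 2 of 11 paralogs rose, *Cpeb3* (1.20) and *Lsm14a* (0.51), the partner of *Lsm14b* in its family. Of the polyadenylation list *Paip2b* rose (0.87) and *Paip1* fell (-0.74), and of the repression list *Nanos2* (1.10), *Edc4* (0.58) and *Dcp1a* (0.52) rose while the exonuclease gene *Xrn1* (-0.76) and *Stau2* (-0.58) fell. Of the dormant mRNAs *Dcp1a* rose and the spindle gene *Tpx2* fell (-0.50). Without fl/fl Zp3-Cre replicate 1, *Paip1* was the 1 of these 10 genes that remained called, though all 10 kept their direction. Between the drivers, where 0.891% of all genes were called, *Paip1* fell by 1.46 on the log2 scale with Zp3-Cre, the largest change of the list genes called there, and *Cpsf2* (-0.74) and *Eif4g1* (-0.97) also fell. Of these 3 genes *Paip1* and *Eif4g1* remained called without Zp3-Cre replicate 1.

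For the mean of both fl/fl groups against wt/fl (2.79% of all genes called), *Cpeb3* (0.95), *Paip2b* (0.70) and *Nanos2* (0.90) rose and *Aurka* (-0.35), *Ccnb1* (-0.47) and *Tpx2* (-0.36) fell. *Ccnb1* encodes cyclin B1 and *Aurka* Aurora kinase A, both needed for meiotic maturation. Without fl/fl Zp3-Cre replicate 1, *Paip2b* was the 1 of these 6 genes that remained called. Against fl/del Spo11-Cre (2.9% of all genes), *Paip2b* (0.67), *Nanos2* (1.11), *Atxn2* (0.55), *Edc4* (0.48), *Dcp1a* (0.47) and the deadenylase gene *Cnot7* (0.38) rose, while *Ccnb1* (-0.52) and *Tpx2* (-0.44) fell. Without the same library 4 of these 8 genes remained called, *Paip2b*, *Nanos2*, *Dcp1a* and *Cnot7*. These 2 comparisons share the fl/fl libraries and are not independent.

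*Ddx6* was the member whose group means of log2 CPM spread most, over 1.74, against 1.04 for *Lsm14b*, 0.88 for *Ybx2* and 0.10 for *Zar1l*. Among 8524 genes with a mean count of at least 100, the profiles over 21 libraries nearest to that of *Ddx6* were those of *Eif3a*, *Enpp4* and *Kif20b*, with root mean square differences in centred log2(CPM + 1) of 0.32, 0.33 and 0.33. The profile of *Ddx6* itself departed from its own mean by 0.50 on this measure. *Kif20b* was at a mean of 261 CPM with Gdf9-Cre and 141 CPM with Zp3-Cre, and *Eif3a* at 75.5 and 41.5 CPM.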

How the data were processed

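Poly(A) RNA was amplified with the SMART-seq v4 kit and made into Nextera XT libraries. Reads were trimmed (fastp), mapped to GRCm38 (HISAT2 2.2.1) and assigned to genes (featureCounts 2.0.3) by the authors. The deposited counts are whole numbers over all exons without normalization, and the deposited TPM are the authors' values of the same counts per gene length, used for levels between genes. How the mates of a pair were counted is not given in the sources used here, and counts were 1.95 times (median) those of the table in which *Kif11* was counted over exon 22. Symbols came from the GENCODE M21 annotation, for 54079 of 54232 genes.

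Models were fitted to the counts with edgeR 4.0.16 (R 4.3.3, TMM, glmQLFit and glmQLFTest) keeping genes counted in 3 or more libraries, in a fit of the 17 libraries of the Spo11-Cre background and in one of all 21, which share 1 estimate of spread. The p-values were adjusted over all genes tested, and 14 comparisons were made. The study's tool, DESeq2 (1.42.0), and limma 3.58.1 on log2(TPM + 1) were alternatives, as were RLE library sizes, other filters, other sets of samples, the replicate number as a block, the exon 22 table, sums of libraries that share a name prefix, and leaving out each library. The code was tested on simulated data. CPM is the count per 1000000 counts of the library. CPE and poly(A) signal letters were searched in the transcript with the longest coding sequence of each gene. The search of 1 member's region is not reported here.

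The rule was to name all 10 members in every comparison, and the text gives some of those not called as a count or range only. Of the other lists, up to 3 genes per direction with an adjusted p under 0.05 and the largest log2 fold changes are named, with the TPM of the paralogs. For the member with the widest span of group means, the 3 genes nearest in profile are named. The members and lists were chosen with earlier results of these data known. *Papd4* of the polyadenylation list is an older symbol of *Tent2*, which is in the list. Depth limits the low genes: *Ddx6* had from 33 to 312 counts per library, *Ybx2* 297 or more and *Zar1* 7322 or more. None of the 30 pairs of libraries within a group was the same within sampling noise, and pairs across groups were not tested. Python 3.11.15, numpy 2.4.6, pandas 2.3.3 and matplotlib 3.10.9 were used.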

Additional observations from a re-analysis of the deposited data

Results flagged for a closer look

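The gap of the highest or lowest library to its nearest neighbour was compared with Dixon's 95% critical value in 40 groups of 4 or 5 libraries, of which chance flags about 1 in 20. It was exceeded in 2 groups. *Ybx2* in fl/del Spo11-Cre replicate 4 was at 48.6 CPM, against 31.6 to 33.4 CPM in the other 3 libraries of the group, a gap of 0.892 of the range (critical value 0.829). *Eif4e1b* in wt/fl Spo11-Cre replicate 5 was at 169.5 CPM, against 76.8 to 93.2 CPM in the other 4, a gap of 0.823 of the range (critical value 0.710). The groups of 2 fl/fl libraries were not tested.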

How the results depend on the processing

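The number of members called stayed within 1.5 times the reported number in 201 of 262 recounts, and 349 of 430 refitted log2 fold changes, of members called as reported or under an alternative, kept their direction and their side of the threshold. Of the other 81, 58 gained a call, 22 lost one and 1 turned direction (*Eif4e1b*, mean of the fl/fl groups against wt/fl, 0.29 as reported and not called, -0.0046 without fl/fl Zp3-Cre replicate 1, and up to 0.51 without replicate 2). Causes were not tested, apart from the number of genes and libraries, which each alternative sets. Over 4 genotypes (1 called), the count was 2 with DESeq2, with the replicate block and in the exon 22 table, 3 with no filter on low counts, and 0 with filterByExpr, with limma on TPM and with name prefixes summed, a range of 0 to 2 when each library was left out. Between wt/fl Spo11-Cre and wt/fl (2 called), it was 1 with filterByExpr and with only the compared groups, 0 with limma and with all 21 libraries fitted together, and 0 to 3 by leaving out libraries. Between fl/del Spo11-Cre and either wt/fl or fl/del (0 called), *Cpeb1* made it 1 with no filter and with the block, and 0 to 1 by leaving out libraries. For fl/del against wt/fl Spo11-Cre the block gave 1, and for the interaction no filter gave 1. Over 6 groups (4 called) it was 7 with DESeq2, 1 with limma, and 2 to 6 by leaving out libraries. For Gdf9-Cre against wt/fl (0 called) it was 1 with DESeq2, and 0 to 1 by leaving out libraries. For Zp3-Cre against wt/fl (1 called) it was 2 with RLE library sizes and filterByExpr, 4 with DESeq2 and no filter, 5 with the block, 0 with limma, and 0 to 5 by leaving out libraries. For the mean of the fl/fl groups against wt/fl (0 called) it was 1 with DESeq2 and no filter, 2 with the block, and 0 to 3 by leaving out libraries, and against fl/del Spo11-Cre (1 called) it was 0 to 2 by leaving out libraries. Between the drivers (2 called) it was 5 with no filter and with the block, 1 with limma, 0 in a fit of the 4 libraries alone, and 2 to 4 by leaving out libraries. DESeq2, and edgeR with no filter on low counts, called more of all genes than the reported fit in every comparison. With TMM or RLE library sizes, mean levels moved by more than the spread between libraries for *Eif4enif1* with Zp3-Cre (338 and 342 CPM, against 361), *Dazl* with Gdf9-Cre (1294 and 1301, against 1351) and *Dazl* with Zp3-Cre (837 and 847, against 894).

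The replicate numbers showed no clear pairing: over 24 pairs of same-numbered libraries of different genotypes, the correlation of deviations from the group means ran from -0.134 to 0.134. Of 16 libraries, 6 correlated best with their own number. No chance level was computed for that count, so pairing was not excluded. With the replicate block *Eif4e1b* was not called in wt/fl Spo11-Cre (log2 fold change 0.23, edgeR adjusted p 0.426) and *Cpeb1* was (-0.33, 0.00996). Leaving out 1 of 2 fl/fl libraries assumes that the lone library varies like the other groups. *Ddx6*, with 33 counts in its lowest library, is the member most limited by depth.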
